A study of Mus musculus with 12 samples.

Results

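The canonical Wnt pathway was followed in mouse embryonic stem cells (ESCs) through 10 genes, which were taken by symbol from the deposited expression table. *Fzd2*, *Fzd5*, *Fzd7* and *Lrp6* encode receptors, *Ctnnb1*, *Tcf7l1*, *Tcf7* and *Lef1* nuclear effectors, and *Axin2* and *Sp5* are target genes. All 10 were found among the 47940 genes that could be used. Polyadenylated RNA had been sequenced from 3 lines. The first was the parental E14 line. In ESC + H/F-PRAMEL7WT, the HA/FLAG-tagged PRAMEL7 sequence had been inserted at *Rosa26* under the CAG promoter. ESC + H/F-PRAMEL7ΔN carried the same insertion with an N-terminal deletion, which the labels give as 50 amino acids and the study's text as fewer. All cells were grown on gelatin in serum with LIF, without feeder cells. The derived lines went back to clones isolated from single cells, so a change in a line cannot be told apart from a property of its clone. Values were held for 2 libraries per line, although the study's methods describe more replicates. The extraction notes in the labels give independent dishes as their source, and p-values measure only the spread between such dishes.

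Wnt ligands bind a Frizzled receptor together with LRP5 or LRP6. Axin is then drawn to the membrane, the complex that destroys β-catenin is disabled, and β-catenin enters the nucleus, where it meets the TCF/LEF factors. In ESCs, TCF7L1 mainly represses pluripotency genes, and β-catenin relieves that repression. TCF7 and LEF1 act more as activators, whereas *Axin2* and *Sp5* are induced by the pathway and feed back on it.

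Values are read counts scaled to library size (CPM), obtained from the deposited RPKM values. The 6 libraries held between 18255091 and 19856260 reads on genes. *Pramel7* had 0.258 and 0.217 CPM in parental ESCs, 51.2 and 46.2 CPM in ESC + H/F-PRAMEL7WT and 397.7 and 430.9 in ESC + H/F-PRAMEL7ΔN. Hence the 2 derived lines differed in the level of *Pramel7* as well as in the deletion. The 6 ESC markers were present throughout, with summed levels of 3059 to 3372 CPM in parental ESCs, 3071 to 3231 in ESC + H/F-PRAMEL7WT and 3436 to 3490 in ESC + H/F-PRAMEL7ΔN. Markers of other cell types moved too, and none was at 0 in all libraries. In the same order of lines, the summed level of 5 primitive endoderm markers was 5.75 to 7.07, 9.31 to 9.62 and 7.66 to 9.14 CPM, and that of 5 trophectoderm markers 7.48 to 9.06, 7.49 to 10.3 and 11.5 to 12.9. For 4 neural markers, mostly *Tubb3*, it was 187 to 198, 265 to 269 and 162 to 186, and for 4 fibroblast markers, mostly *Thy1*, 42.4 to 56.0, 21.8 to 23.0 and 39.0 to 44.3. Within these sums the markers did not move together. Among the ESC markers, *Utf1* had 186.6 and 274.2 CPM in parental ESCs and 346.9 and 409.2 in ESC + H/F-PRAMEL7WT. *Zfp42* went the other way, from 474.9 and 556.2 CPM to 377.0 and 408.6. *Gata4* and *Sox7* were higher and *Pdgfra* lower in every derived library than in parental ESCs. The trophectoderm rise in ESC + H/F-PRAMEL7ΔN was mainly in *Eomes*, at 4.90 and 4.28 CPM in parental ESCs and 9.13 and 10.6 there. *Krt7* had 2.06 and 4.28 CPM in parental ESCs and 2.11 and 2.06 in ESC + H/F-PRAMEL7ΔN. The part of all these markers in the results was not tested.

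The proximal promoters of *Sp5*, *Lef1* and *Axin2*, the 3 members best known as targets of TCF/LEF, are shown with the core of the motif that these factors read. The 250 bases before each RefSeq start are printed from 5′ to 3′ on the strand of the gene (GRCm38.p6), with CTTTG, or CAAAG where it lies on the opposite strand, in capitals. The *Sp5* window is chr2:70474673-70474922, that of *Lef1* chr3:131110073-131110322 and that of *Axin2* chr11:108920099-108920348, all on the plus strand. Where RefSeq lists several starts, the one nearest the GENCODE start was taken (*Lef1* has 4 windows, and *Ctnnb1* and *Tcf7* have 2 each), and the other windows were not searched for these genes.
Sp5: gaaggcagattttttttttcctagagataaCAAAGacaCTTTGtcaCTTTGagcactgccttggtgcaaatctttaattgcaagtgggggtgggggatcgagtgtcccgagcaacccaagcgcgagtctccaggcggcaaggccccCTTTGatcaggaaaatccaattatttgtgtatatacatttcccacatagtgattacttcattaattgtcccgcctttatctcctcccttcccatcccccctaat
Lef1: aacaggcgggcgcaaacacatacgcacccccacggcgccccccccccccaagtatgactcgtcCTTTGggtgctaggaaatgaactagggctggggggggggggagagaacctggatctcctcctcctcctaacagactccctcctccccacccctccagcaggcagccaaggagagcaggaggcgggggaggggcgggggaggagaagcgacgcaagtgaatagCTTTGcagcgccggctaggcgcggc
Axin2: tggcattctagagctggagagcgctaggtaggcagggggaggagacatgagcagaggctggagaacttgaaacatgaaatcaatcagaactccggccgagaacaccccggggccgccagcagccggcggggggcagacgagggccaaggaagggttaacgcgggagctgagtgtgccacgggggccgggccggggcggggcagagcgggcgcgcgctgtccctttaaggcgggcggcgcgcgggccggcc
The *Sp5* window held 4 matches to CTTTG on either strand. They begin 220, 212, 204 and 104 bases before the start, and 2 of the 4 extend to the longer CTTTGA. At least 4 matches were held by 0.773% of the 32851 RefSeq windows of this length, and at least 2 matches to CTTTGA by 1.37%. The *Lef1* window held 2 matches, and 15.7% of all windows held at least 2. The *Axin2* window held none. *Fzd7* and *Tcf7l1* had 1 match each, where 48.6% of windows held at least 1, whereas *Fzd5*, *Ctnnb1* and *Tcf7* had none. The *Ctnnb1* window lies 4184 bases from the GENCODE start. That of *Tcf7* holds an ATG with an open reading frame running to its end, so it may contain coding sequence. These are matches of letters in a short window and not measured binding sites.

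Relative to parental ESCs, *Fzd7* and *Tcf7l1* were upregulated and *Lrp6*, *Tcf7*, *Lef1* and *Axin2* were downregulated in ESC + H/F-PRAMEL7WT. *Fzd2*, *Fzd5* and *Ctnnb1* did not pass the test. In such bulk samples, fewer expressing cells and less RNA per cell cannot be told apart. Testing used limma on log2(CPM + 1) for genes exceeding 1 CPM in 2 or more libraries, and a gene was called at a Benjamini-Hochberg adjusted p under 0.05 over the 12914 genes tested. *Sp5* stayed below 1 CPM in every library and was not tested. Thus 2 of the 9 tested members were higher and 4 lower, where 8.71% of all tested genes were called higher and 16.3% lower (25.0% in either direction). With a further limit of 0.58 on the absolute log2 fold change, 2 were higher and 2 lower, against 4.07% and 8.41% of all tested genes (12.5% in either direction). The median log2 fold change was -0.16 over the members and -0.08 over all genes. The members were chosen with earlier results of these data known, so these counts, and those of the other comparisons below, are descriptions.

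ESC + H/F-PRAMEL7ΔN differed from parental ESCs by upregulation of *Tcf7l1* and *Lrp6* and by downregulation of *Fzd2*, *Fzd7*, *Tcf7* and *Axin2*. Here 2 of the 9 members were called higher and 4 lower, against 6.25% and 13.6% of all tested genes (19.9% in either direction). The fold limit left 1 higher and 4 lower, where 2.87% and 8.41% of all tested genes passed (11.3% in either direction). The members' median log2 fold change was -0.46, and that of all genes -0.06. Both comparisons use the same parental libraries, so the calls they have in common are not independent.

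In the direct comparison, *Fzd2*, *Fzd7* and *Axin2* were higher in ESC + H/F-PRAMEL7WT than in ESC + H/F-PRAMEL7ΔN, and *Fzd5* and *Lrp6* were lower. That is 3 of 9 members higher and 2 lower, where 10.9% and 9.44% of all tested genes were called (20.4% in either direction). With the fold limit 2 were higher and 1 lower, against 6.63% and 4.72% (11.3% in either direction). *Ctnnb1*, *Tcf7l1*, *Tcf7* and *Lef1* were not called between the derived lines.

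**Figure D1:**
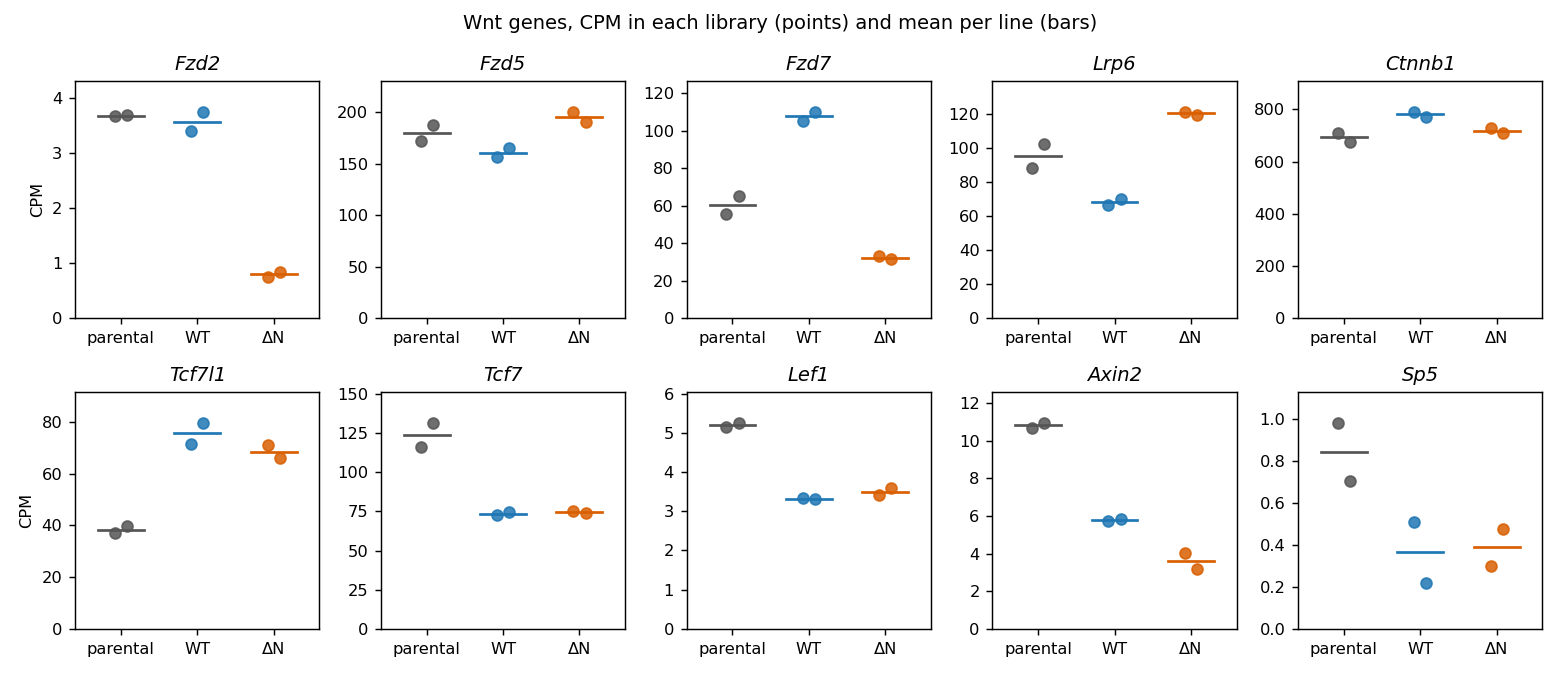
Level of each of the 10 genes in CPM (y axis, starting at 0, with its own scale for each gene) in parental ESCs, ESC + H/F-PRAMEL7WT (WT) and ESC + H/F-PRAMEL7ΔN (ΔN). Points are the 2 libraries of a line and bars their mean. The 3 lines do not overlap for *Fzd5*, *Fzd7*, *Lrp6*, *Tcf7l1*, *Lef1* and *Axin2*, although some of the gaps are small. *Fzd2* is low in ΔN, and *Tcf7* and *Tcf7l1* differ between parental ESCs and both derived lines.

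*Fzd7*, a Frizzled receptor prominent in pluripotent cells, moved in opposite directions in the 2 derived lines. Parental ESCs had 55.4 and 65.0 CPM, ESC + H/F-PRAMEL7WT 105.2 and 109.9, and ESC + H/F-PRAMEL7ΔN 33.0 and 31.6. The ranges of the 3 lines did not overlap, and the means were 60.2 ± 6.83, 107.5 ± 3.36 and 32.3 ± 0.992 (SD, n = 2 each). Its log2 fold change over parental ESCs was 0.83 in ESC + H/F-PRAMEL7WT (standard error 0.10, adjusted p = 0.00135 from limma) and -0.87 in ESC + H/F-PRAMEL7ΔN (standard error 0.10, adjusted p = 0.000714). Between the derived lines the means differed 3.33-fold, with a log2 difference of 1.70 (95% interval 1.47 to 1.94, adjusted p = 1.55e-05 from limma). *Fzd7* is a gene of 1 exon block on chromosome 1 (chr1:59482424-59486955, plus strand, GRCm38), and the 60 tested genes within 5 Mb had median log2 fold changes of -0.11 and 0.06 in the 2 lines.

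*Fzd2*, another Frizzled receptor, was low in ESC + H/F-PRAMEL7ΔN alone among the 3 lines. It had 3.66 and 3.69 CPM in parental ESCs, 3.39 and 3.74 CPM in ESC + H/F-PRAMEL7WT, and 0.753 and 0.845 in ESC + H/F-PRAMEL7ΔN, where these levels rest on 15 and 16 reads. The first 2 lines overlapped and the third lay below both. *Fzd2* passed the filter of 1 CPM only through those first 2 lines, which favours a call of lower levels in the third. Its mean was 4.60-fold lower in ESC + H/F-PRAMEL7ΔN than in parental ESCs (log2 fold change -1.38, standard error 0.16, adjusted p = 0.000677 from limma). Against ESC + H/F-PRAMEL7ΔN, ESC + H/F-PRAMEL7WT had a log2 difference of 1.34 (adjusted p = 0.0007 from limma). For ESC + H/F-PRAMEL7WT over parental ESCs the log2 fold change was -0.03 with a 95% interval from -0.40 to 0.33, and its sign turned with other scalings. *Fzd2* lies on chromosome 11 (chr11:102604396-102608058, plus strand), where the 183 tested genes within 5 Mb had a median of -0.34 in ESC + H/F-PRAMEL7ΔN.

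*Fzd5* had the highest parental level per exon length of these 3 Frizzled genes. Its values were 171.6 and 187.1 CPM in parental ESCs, 156.6 and 164.9 CPM in ESC + H/F-PRAMEL7WT, and 200.1 and 190.7 in ESC + H/F-PRAMEL7ΔN. The log2 fold changes over parental ESCs were -0.16 (95% interval -0.35 to 0.04) and 0.12 (-0.07 to 0.32), neither called. A log2 difference of -0.28 between the derived lines had an adjusted p of 0.0467 from limma, and 11 of the 19 other settings put it above the limit. *Fzd5* lies at chr1:64730558-64737751 on the minus strand.

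*Lrp6*, the co-receptor, ran the other way from *Fzd7*. Parental ESCs had 88.1 and 102.5 CPM, ESC + H/F-PRAMEL7WT 66.5 and 69.9, and ESC + H/F-PRAMEL7ΔN 121.2 and 119.5. No lines overlapped, and ESC + H/F-PRAMEL7WT was the lowest. The decrease in ESC + H/F-PRAMEL7WT was -0.47 on the log2 scale (standard error 0.10, adjusted p = 0.00913 from limma), and without 1 of the 2 ESC + H/F-PRAMEL7WT libraries the adjusted p was 0.0997 and 0.0675. The increase in ESC + H/F-PRAMEL7ΔN was 0.34 (adjusted p = 0.0383 from limma), and it was lost in 9 of the 18 other settings, among them the omission of any 1 library other than parental replicate 2. Between the derived lines the log2 difference was -0.81 (95% interval -1.03 to -0.59, adjusted p = 0.000693 from limma). *Lrp6* lies on chromosome 6 (chr6:134446476-134566965, minus strand), and the 29 tested genes within 5 Mb had medians of 0.33 in ESC + H/F-PRAMEL7ΔN and -0.46 between the derived lines. Their part in the result was not tested.

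*Ctnnb1*, which encodes β-catenin, was the most abundant member per exon length in each line. It had 711.2 and 675.5 CPM in parental ESCs, 790.0 and 771.5 CPM in ESC + H/F-PRAMEL7WT, and 727.6 and 710.0 in ESC + H/F-PRAMEL7ΔN. Only ESC + H/F-PRAMEL7WT lay apart from the other lines, by a small margin. The log2 fold changes over parental ESCs were 0.17 (95% interval -0.01 to 0.35) and 0.05 (-0.13 to 0.23), and the difference between the derived lines was 0.12 (-0.06 to 0.30). None was called, although median-ratio scaling gave 0.27 with an adjusted p of 0.0449 from limma in ESC + H/F-PRAMEL7WT. The gene (chr9:120929216-120960507, plus strand) shares 5157 bases with *Ulk4* on the opposite strand, which had a mean of 2.86 CPM. The counting is not stated to use strand, so reads there cannot be told apart.

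*Tcf7l1*, the repressor among the TCF factors, was upregulated in both derived lines. Levels were 37.2 and 39.6 CPM in parental ESCs, 71.4 and 79.8 CPM in ESC + H/F-PRAMEL7WT, and 71.1 and 66.0 in ESC + H/F-PRAMEL7ΔN. All 4 derived libraries lay above both parental ones, with means of 38.4 ± 1.69, 75.6 ± 5.90 and 68.6 ± 3.59 CPM (SD, n = 2 each), and the means rose 1.97-fold and 1.78-fold. The log2 fold changes were 0.96 (standard error 0.10, adjusted p = 0.000818 from limma) and 0.82 (standard error 0.10, adjusted p = 0.000804). Their difference of 0.14 had a 95% interval from -0.09 to 0.36 and was not called. *Tcf7l1* lies on chromosome 6 (chr6:72626378-72789254, minus strand). The 35 tested genes within 5 Mb had a median log2 fold change of -0.09 in ESC + H/F-PRAMEL7WT and 0.38 in ESC + H/F-PRAMEL7ΔN, and their part in the second result was not tested.

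*Tcf7*, which encodes TCF1, fell in both derived lines. It had 116.0 and 131.7 CPM in parental ESCs, 72.5 and 74.4 CPM in ESC + H/F-PRAMEL7WT, and 75.3 and 73.7 in ESC + H/F-PRAMEL7ΔN. The 2 derived lines overlapped, and both lay below parental ESCs. The log2 fold changes were -0.74 (standard error 0.09, adjusted p = 0.00135 from limma) and -0.72 (standard error 0.09, adjusted p = 0.00101), and the interval of their difference ran from -0.23 to 0.19. At its place on chromosome 11 (chr11:52252371-52283014, minus strand), the 73 tested genes within 5 Mb had medians of -0.32 and -0.36.

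*Lef1*, another TCF/LEF factor, was expressed at a low level. Parental ESCs had 5.16 and 5.26 CPM, ESC + H/F-PRAMEL7WT 3.34 and 3.30, and ESC + H/F-PRAMEL7ΔN 3.41 and 3.59. All 4 derived libraries were lower than the parental ones and rested on 60 to 68 reads each. In ESC + H/F-PRAMEL7WT the log2 fold change was -0.52 (adjusted p = 0.0336 from limma), a call lost in 11 of 17 other settings. It was -0.46 in ESC + H/F-PRAMEL7ΔN (95% interval -0.81 to -0.12, adjusted p = 0.0596), which missed the limit. The gene lies at chr3:131110471-131224356 on the plus strand, and genes within 5 Mb had medians of -0.09 and -0.06.

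*Axin2*, whose product is a scaffold of the destruction complex and a standard reporter of Wnt activity, fell in both lines. It had 10.7 and 11.0 CPM in parental ESCs, 5.72 and 5.84 CPM in ESC + H/F-PRAMEL7WT, and 4.01 and 3.17 in ESC + H/F-PRAMEL7ΔN. The 3 lines did not overlap, with parental ESCs highest and ESC + H/F-PRAMEL7ΔN lowest. The mean was 1.87-fold lower in ESC + H/F-PRAMEL7WT (log2 fold change -0.80, standard error 0.16, adjusted p = 0.00691 from limma). Without 1 of that line's 2 libraries the adjusted p became 0.0647 and 0.061. ESC + H/F-PRAMEL7ΔN was 3.01-fold lower than parental ESCs (log2 fold change -1.37, standard error 0.16, adjusted p = 0.00056 from limma). The difference between the derived lines was 0.57 (95% interval 0.22 to 0.92, adjusted p = 0.0304 from limma), and it was lost without any 1 derived library and without the filter on low values. *Axin2* lies on chromosome 11 (chr11:108920349-108950783, plus strand), and the 62 tested genes within 5 Mb had medians of -0.48 and -0.46 in the 2 lines.

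*Sp5*, the target whose promoter held 4 CTTTG matches, had 0.981 and 0.705 CPM in parental ESCs, from 19 and 13 reads. The corresponding levels were 0.506 and 0.220 CPM in ESC + H/F-PRAMEL7WT, from 10 and 4 reads, and 0.301 and 0.475 in ESC + H/F-PRAMEL7ΔN, from 6 and 9. Both parental libraries lay above all 4 derived ones. Without the filter on low values, the log2 fold changes were -0.44 (adjusted p = 0.125 from limma) and -0.41 (adjusted p = 0.169), so a change in *Sp5* was not detectable at this depth. The gene lies at chr2:70474923-70477729 on the plus strand.

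**Figure D2:**
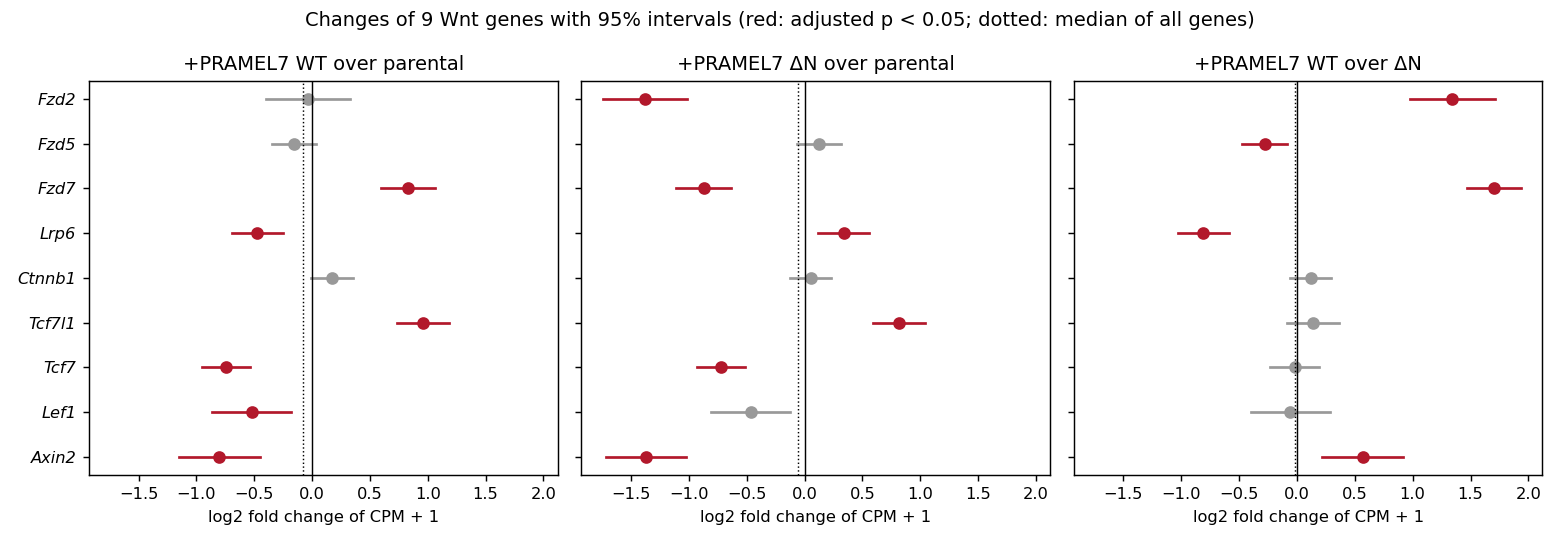
Log2 fold change of CPM + 1 (x axis) of the 9 tested genes in the 3 comparisons, with 95% intervals as lines, red where the adjusted p is under 0.05 and grey elsewhere. The dotted line is the median of all tested genes. *Tcf7l1*, *Tcf7* and *Axin2* are red and on the same side in the first 2 panels, *Fzd7* and *Lrp6* change sides, and *Fzd7* has the highest value of the third, 1.70.

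The 3 members on chromosome 11, *Fzd2*, *Tcf7* and *Axin2*, lay in surroundings with lower values in both derived lines. Over the 1102 tested genes of that chromosome, the median log2 fold change was below that of all genes by 0.28 in ESC + H/F-PRAMEL7WT and by 0.27 in ESC + H/F-PRAMEL7ΔN. The decreases of *Tcf7* and *Axin2* were larger than their neighbours' medians in both lines, and so was that of *Fzd2* in ESC + H/F-PRAMEL7ΔN. Some neighbours fell further still. In ESC + H/F-PRAMEL7WT these were 13.7% of the neighbours of *Tcf7* and 17.7% of those of *Axin2*. The shares in ESC + H/F-PRAMEL7ΔN were 9.59% for *Tcf7*, 1.61% for *Axin2* and 1.09% for *Fzd2*. In ESC + H/F-PRAMEL7WT, *Fzd2* was nearer to 0, at -0.03, than its neighbours, at -0.39. On chromosome 6, which carries *Lrp6* and *Tcf7l1*, the median over 603 tested genes differed from that of all genes by -0.18 in ESC + H/F-PRAMEL7WT, 0.30 in ESC + H/F-PRAMEL7ΔN and -0.38 between the derived lines. These have the signs of the 3 values of *Lrp6*, whereas *Tcf7l1* rose in ESC + H/F-PRAMEL7WT. The part of these surroundings in the results was not tested.

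**Figure D3:**
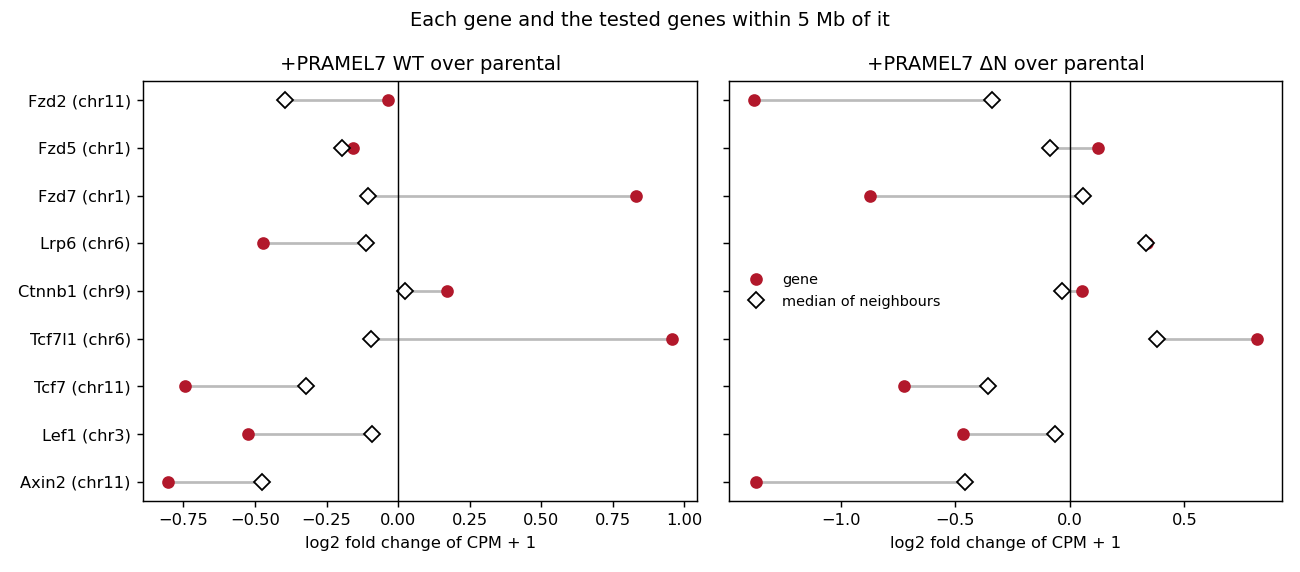
Log2 fold change of CPM + 1 over parental ESCs (x axis) for each tested member (red points) and the median of the tested genes within 5 Mb of it (open diamonds), in ESC + H/F-PRAMEL7WT (left) and ESC + H/F-PRAMEL7ΔN (right), on separate scales. Neighbours of the chromosome 11 members sit left of 0 in both panels, whereas *Fzd7* at 0.83 and -0.87 lies far from its neighbours at -0.11 and 0.06, and *Lrp6* in the right panel coincides with its neighbours.

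Set against each other per length, as CPM per kb of exon, the members covered a wide range. In parental ESCs the order of mean levels was *Ctnnb1* (133.5), *Tcf7* (47.2), *Fzd5* (25.9), *Fzd7* (13.3), *Tcf7l1* (9.80), *Lrp6* (6.97), *Axin2* (1.96), *Fzd2* (1.00), *Lef1* (0.593) and *Sp5* (0.401), and no neighbours in it overlapped. ESC + H/F-PRAMEL7WT placed *Fzd7* at 23.7 CPM per kb, overlapping *Fzd5* at 23.2, with *Tcf7* at 28.0 and *Tcf7l1* at 19.3. In ESC + H/F-PRAMEL7ΔN *Fzd7* had 7.13 and lay below *Lrp6* at 8.80, and *Tcf7* at 28.4 overlapped *Fzd5* at 28.3. There *Fzd2*, at 0.218 CPM per kb, overlapped *Sp5* at 0.185. The level of *Tcf7* per kb thus stood above that of the repressor *Tcf7l1* in all 3 lines, by a smaller margin in the derived ones.

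**Figure D4:**
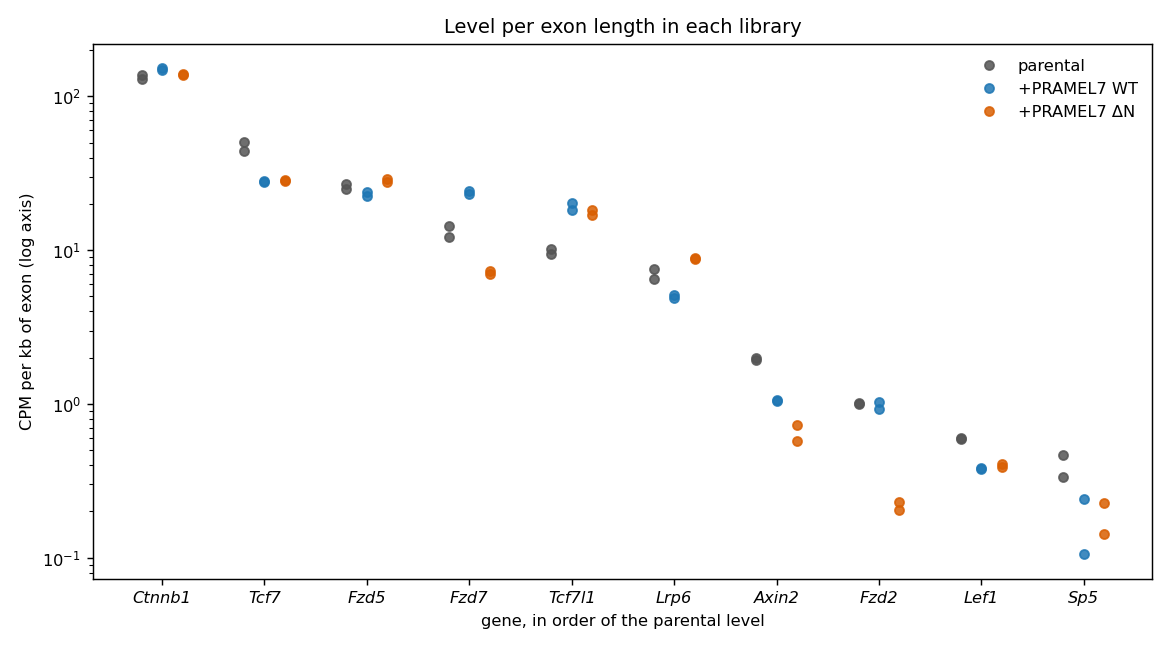
CPM per kb of exon (y axis, log scale) in each library, with genes ordered by their parental mean (x axis) and lines by colour. *Ctnnb1* stands highest in all lines, and *Sp5* is the lowest in parental ESCs at 0.401 CPM per kb. *Fzd7* moves from 13.3 in parental ESCs to 23.7 in ESC + H/F-PRAMEL7WT and 7.13 in ESC + H/F-PRAMEL7ΔN.

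A list of 96 other genes of the pathway gave the wider setting, and 60 of them were tested. In ESC + H/F-PRAMEL7WT 8 were higher and 9 lower than in parental ESCs, with a median log2 fold change of 0.003, where 8.71% and 16.3% of all tested genes were called. ESC + H/F-PRAMEL7ΔN had 5 higher and 14 lower, with a median of -0.13, against 6.25% and 13.6% of all tested genes. Between the derived lines 12 had higher and 5 lower levels in ESC + H/F-PRAMEL7WT, with a median of 0.14, against 10.9% and 9.44%. With these shares and few genes per group, the group counts that follow are descriptions.

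Of the 9 other receptors tested, 1 rose in ESC + H/F-PRAMEL7WT, 1 fell in ESC + H/F-PRAMEL7ΔN and 4 were higher in ESC + H/F-PRAMEL7WT than in ESC + H/F-PRAMEL7ΔN, with none lower. Over all tested genes, 8.71%, 13.6% and 10.9% had such calls. These 4 were *Fzd4*, *Fzd6*, *Fzd8* and *Fzd10*, of which only *Fzd10* was named by the rule and the others after their values were seen. *Fzd8* had means of 2.70, 5.83 and 2.29 CPM in parental ESCs, ESC + H/F-PRAMEL7WT and ESC + H/F-PRAMEL7ΔN, a log2 difference of 1.05 between the derived lines (adjusted p = 0.00389 from limma). It was also the receptor gene called higher than in parental ESCs in ESC + H/F-PRAMEL7WT, a call lost without 1 of that line's libraries (adjusted p = 0.0735 and 0.062) and without the filter on low values (adjusted p = 0.0535). *Fzd4*, with 3.65, 3.22 and 1.49 CPM, fell by 0.91 on the log2 scale in ESC + H/F-PRAMEL7ΔN (adjusted p = 0.00797 from limma), although no longer called without that line's replicate 2 (adjusted p = 0.0732). *Fzd10* had 27.0, 28.2 and 22.1 CPM, and its difference of 0.34 was at the limit (adjusted p = 0.0498 from limma) and lost without any 1 derived library. Of the 4, *Fzd8* kept the call between the derived lines with any 1 library left out, and *Fzd4* and *Fzd6* lost it without any 1 derived library. The co-receptor gene *Lrp5* had 94.5, 107.0 and 84.7 CPM and was called in none of the 3 comparisons.

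Among 4 tested genes of receptor turnover, *Znrf3*, which encodes a ubiquitin ligase that removes Frizzled receptors and is itself a Wnt target, fell in both lines. Its means were 32.3 ± 3.31, 18.9 ± 1.12 and 17.0 ± 0.739 CPM (SD, n = 2), with log2 fold changes of -0.74 (adjusted p = 0.00375 from limma) and -0.89 (adjusted p = 0.00153). The first call was lost without replicate 1 of ESC + H/F-PRAMEL7WT (adjusted p = 0.0546). Like *Axin2*, *Znrf3* lies on chromosome 11. *Lgr4*, a receptor for R-spondins, which protect Frizzled from that removal, had 80.4, 75.6 and 51.0 CPM and fell in ESC + H/F-PRAMEL7ΔN by 0.63 on the log2 scale (adjusted p = 0.0081 from limma). Without 1 of that line's libraries the adjusted p was 0.0769 and 0.0541. *Lgr6*, named after its values were seen, was the member of this group that rose in ESC + H/F-PRAMEL7ΔN, from 3.98 to 7.47 CPM (log2 fold change 0.77, adjusted p = 0.0148 from limma). That call was lost without 1 of that line's libraries, at log2 fold changes of 0.85 and 0.69. Between the derived lines 1 of the 4 was higher in ESC + H/F-PRAMEL7WT and 1 lower, against 10.9% and 9.44% of all tested genes. The lower gene was *Lgr6*, at 2.65 CPM in ESC + H/F-PRAMEL7WT (log2 difference -1.22, adjusted p = 0.00168 from limma).

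Of the 13 tested genes of Dishevelled and the destruction complex, 1 was higher and 4 were lower in ESC + H/F-PRAMEL7WT, and 2 were lower in ESC + H/F-PRAMEL7ΔN, where 8.71%, 16.3% and 13.6% of all tested genes had such calls. The kinase gene *Gsk3b* had 58.9, 41.3 and 48.0 CPM, with a log2 fold change of -0.50 in ESC + H/F-PRAMEL7WT (adjusted p = 0.00751 from limma). *Btrc* and *Fbxw11*, whose products mark phosphorylated β-catenin for destruction, were lower in both lines. The log2 fold changes were -0.34 and -0.43 for *Btrc* and -0.43 and -0.42 for *Fbxw11*. *Fbxw11* lies on chromosome 11, where the medians over all tested genes were -0.36 and -0.33, and the part of that chromosome was not tested. The scaffold gene *Amer1* was higher in ESC + H/F-PRAMEL7WT, by 0.63 (adjusted p = 0.00484 from limma). *Axin1* had 113.5, 113.7 and 99.0 CPM and was called in none. Of these calls, those of *Gsk3b*, *Btrc* and *Fbxw11* were lost without 1 library of the derived line concerned, whichever was omitted, that of *Btrc* in ESC + H/F-PRAMEL7WT also with each of 3 other scalings, and that of *Amer1* without replicate 1 of ESC + H/F-PRAMEL7WT.

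Among targets outside the 10 genes, *Ccnd1*, which encodes cyclin D1, moved in the directions of *Fzd7*, with 105.6, 145.7 and 79.5 CPM and log2 fold changes of 0.47 (adjusted p = 0.0128 from limma) and -0.40 (adjusted p = 0.0275). Both were lost without 1 library of the line concerned, whichever was omitted, and that in ESC + H/F-PRAMEL7ΔN also with upper-quartile or median-ratio scaling. *Myc* had 43.4, 43.0 and 74.7 CPM and rose in ESC + H/F-PRAMEL7ΔN by a log2 fold change of 0.77 (adjusted p = 0.00109 from limma). Of the 10 other targets listed, 5 were tested, and 1 was higher in ESC + H/F-PRAMEL7WT and 1 higher and 1 lower in ESC + H/F-PRAMEL7ΔN, against 8.71%, 6.25% and 13.6% of all tested genes. The mesendoderm marker *T*, another target, was near 0, with 0.206 and 0.488 CPM in parental ESCs and at most 0.0551 in the derived lines. The summed level of the 5 mesendoderm markers was 0.506 to 1.44 CPM over all libraries.

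The 5 naive pluripotency genes that TCF7L1 is known to repress, *Esrrb*, *Tfcp2l1*, *Klf2*, *Nr5a2* and *Nanog*, were all tested. None was called higher than in parental ESCs in either line, where 8.71% and 6.25% of all tested genes were. In each line 2 were lower, against 16.3% and 13.6%. With 5 genes and these shares, such counts are descriptions. *Nr5a2* fell in both, from a mean of 164.8 to 123.0 and 119.0 CPM (log2 fold changes -0.42 and -0.47, adjusted p = 0.00907 and 0.00593 from limma). These calls were lost without either library of ESC + H/F-PRAMEL7WT and without replicate 1 of ESC + H/F-PRAMEL7ΔN, respectively. *Klf2* had 165.3, 168.7 and 64.5 CPM and fell in ESC + H/F-PRAMEL7ΔN alone (log2 fold change -1.34, adjusted p = 0.000168 from limma), with a direct log2 difference of 1.37 between the derived lines. *Nanog* was lower in ESC + H/F-PRAMEL7WT by 0.36 on the log2 scale (adjusted p = 0.0178 from limma), a call lost in several settings, among them upper-quartile and median-ratio scaling and the omission of 1 library of that line. *Esrrb* and *Tfcp2l1* were not called against parental ESCs. Between the derived lines 1 of the 5 was higher in ESC + H/F-PRAMEL7WT and 2 were lower, against 10.9% and 9.44% of all tested genes. The 2 were *Nanog* (-0.54, adjusted p = 0.00336 from limma) and *Esrrb* (-0.29, adjusted p = 0.0355), calls lost in 1 and 9 of 19 other settings. *Nanog* lies on chromosome 6, whose tested genes had medians of -0.26 and 0.25 in the 2 lines and -0.39 between them. Their part was not tested.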

How the data were processed

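RNA-seq values of 6 libraries, 2 for each of 3 lines, were used, and the ChIP-seq files were not used here. Per the study's methods, the authors removed ribosomal reads, mapped to mm10 with STAR and deposited RPKM values. Of 50978 genes, 176 had repeated or date names, 2796 could not be found in GENCODE vM21 and 66 were found there more than once, and these were left out. Among values up to 20 reads, RPKM times the gene span was whole reads within 0.1 in 98.1 to 98.4% of cases (43.4 to 45.7% with exon length). It was therefore converted to CPM with 1 constant, so the authors' scaling was kept. Testing used limma 3.58.1 (R 4.3.3) with a trend on log2(CPM + 1), for genes exceeding 1 CPM in 2 or more libraries, all lines in one fit, adjusted by Benjamini-Hochberg. The fold change on this scale understates that of low genes. The count-based alternative, voom on whole reads, called 1108 genes higher and 2027 lower in ESC + H/F-PRAMEL7WT. The script was tested on simulated data. The expression table held no value columns beyond those of the 6 libraries, and the authors' own comparisons were not used.

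The members and lists were chosen with earlier results of these data known. All members were named. Of other pathway genes, at most 4 per group with a mean of at least 10 CPM and a call were named by rule. The exception was the group of 5 naive pluripotency genes, all of which were named, called or not. Promoters came from RefSeq and matched 8 of 10 members. Neighbours were tested genes within 5 Mb. The labels' extraction protocol gives independent dishes as the source of the RNA. The alternatives were other pseudocounts, filters, scalings and tools, a replicate block, a fold limit of 0.58, fits of only the compared lines and each library left out. Tables and figures used python 3.11.15, pandas 2.3.3 and matplotlib 3.10.9.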

Additional observations from a re-analysis of the deposited data

Results flagged for a closer look

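The changes over parental ESCs differed between the 2 derived lines for 5 of the 9 tested genes. The direct test of ESC + H/F-PRAMEL7WT against ESC + H/F-PRAMEL7ΔN with limma was used, and it called 20.4% of all tested genes. The log2 differences were 1.70 for *Fzd7*, 1.34 for *Fzd2* and 0.57 for *Axin2*, and -0.81 for *Lrp6* and -0.28 for *Fzd5*. *Fzd7* rose in one line and fell in the other, *Lrp6* did the reverse, and *Axin2* fell in both by unequal amounts. Those of *Fzd2*, *Fzd7* and *Lrp6* were called under every alternative that tested them, whereas those of *Axin2* and *Fzd5* were not. The 2 lines also differed in their level of *Pramel7*. The 29 tested genes within 5 Mb of *Lrp6* had a median of -0.46 in this comparison, and their part was not tested.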

How the results depend on the processing

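Over all alternatives for the 9 members, 442 values kept their direction and their side of the threshold, 40 were no longer past it, 3 newly passed and 4 changed sign. The sign changes were of *Fzd2* in ESC + H/F-PRAMEL7WT, a value not called: 0.11 with quantile, 0.024 with upper-quartile and 0.0425 with median-ratio scaling, and with a library left out from -0.090 to 0.021. Members higher in ESC + H/F-PRAMEL7WT numbered 3 with median-ratio scaling and 1 with RPKM as deposited. Members lower there numbered 2 with either rule using the fold limit of 0.58 and 0 with RPKM, and 1 to 4 with a library left out. Members higher in ESC + H/F-PRAMEL7ΔN numbered 1 without a filter, without trend, with only the 2 lines compared, with either fold limit and with the replicate block, 0 with RPKM, and 1 to 2 with a library left out. Members lower there numbered 1 with RPKM. Between the derived lines, members lower numbered 1 without a filter, without trend, with quantile or median-ratio scaling, voom, either fold limit and the replicate block, 0 with RPKM, and 1 to 2 with a library left out. Members higher numbered 2 without a filter, with the 10 CPM filter and with either fold limit, 1 with RPKM, and 2 to 3 with a library left out. As deposited, RPKM left 2347 genes and 3 members to test. Elsewhere the cause was not tested.

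Calls over all genes numbered 1125 higher and 2109 lower in ESC + H/F-PRAMEL7WT and 807 and 1759 in ESC + H/F-PRAMEL7ΔN. Between the derived lines they numbered 1409 and 1219. With libraries left out, totals ran from 710 to 4264, 841 to 4148 and 702 to 4633, and over other alternatives from 361 to 4435, 271 to 3417 and 257 to 4606. Higher calls made up 34.8% in ESC + H/F-PRAMEL7WT and 54.8% with median-ratio, 49.5% with quantile and 49.9% with upper-quartile scaling (31.4%, 46.8%, 46.7% and 45.7% in ESC + H/F-PRAMEL7ΔN). The deviations of same-numbered libraries had r of 0.30 (ESC + H/F-PRAMEL7WT and parental), -0.34 (ESC + H/F-PRAMEL7ΔN and parental) and -0.13 (the derived lines). These values cannot decide whether libraries were handled in pairs, because the numbering need not match between lines. The replicate block gave 3 higher and 1 lower member between the derived lines and 2 higher and 3 lower in ESC + H/F-PRAMEL7WT. With the crossed block, an alternative chosen after seeing the data, there were 1616 higher and 2819 lower genes in ESC + H/F-PRAMEL7WT.

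With 2 libraries per line, changes near the limits of the intervals given were not resolved, and *Sp5*, *Fzd2* and *Lef1* rest on few reads. A line left with 1 library is assumed to vary like the others.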

Other observations

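Of 6 tested Wnt ligand and secretion genes, 2 rose and 1 fell in ESC + H/F-PRAMEL7WT, and 2 rose and 2 fell in ESC + H/F-PRAMEL7ΔN. Over all tested genes the shares called were 8.71% and 16.3% in the first line and 6.25% and 13.6% in the second. These genes were named after their values were seen. *Wnt7b* had 3.24 and 4.73 CPM in parental ESCs, 12.6 and 12.1 CPM in ESC + H/F-PRAMEL7WT, and 7.58 and 7.33 in ESC + H/F-PRAMEL7ΔN, with log2 fold changes of 1.44 (adjusted p = 0.00114 from limma) and 0.78 (adjusted p = 0.0124). *Wnt6* was also higher in both lines, with means of 1.93, 3.58 and 4.64 CPM. *Wnt5b* was lower in both, with 2.81, 0.767 and 0.978 CPM. It passed the filter on low values only through the parental libraries (2.42 and 3.20 CPM), which favours calls of lower levels. *Porcn*, which encodes the enzyme that attaches a lipid to Wnt ligands, had 11.2, 8.31 and 6.38 CPM and fell in ESC + H/F-PRAMEL7ΔN by 0.72 on the log2 scale (adjusted p = 0.00914 from limma). Of these calls, those of *Wnt6* in ESC + H/F-PRAMEL7WT and of *Wnt5b*, *Wnt7b* and *Porcn* in ESC + H/F-PRAMEL7ΔN were lost without 1 library of that line, whichever was omitted. That of *Wnt6* in ESC + H/F-PRAMEL7ΔN was lost without replicate 1.

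Among 7 tested secreted inhibitors, 1 was higher and 1 lower in ESC + H/F-PRAMEL7WT and 2 were lower in ESC + H/F-PRAMEL7ΔN, against 8.71%, 16.3% and 13.6% of all tested genes. *Sfrp1*, which encodes a protein that binds Wnt ligands, had 99.8, 128.1 and 113.9 CPM and was higher in ESC + H/F-PRAMEL7WT by 0.36 on the log2 scale (adjusted p = 0.0137 from limma), a call lost without 1 library of that line. *Dkk3*, named after its values were seen, was lower in both lines, with 12.5, 8.20 and 8.03 CPM (log2 fold changes -0.55 and -0.58, adjusted p = 0.0224 and 0.0205 from limma), and both calls were lost without 1 library of the line concerned. *Sfrp2*, also named after its values were seen, had 9.99, 10.5 and 5.01 CPM and fell in ESC + H/F-PRAMEL7ΔN (log2 fold change -0.87, adjusted p = 0.00343 from limma). Of 11 tested nuclear cofactors, 2 were higher in ESC + H/F-PRAMEL7WT, and 1 was higher and 2 were lower in ESC + H/F-PRAMEL7ΔN, against 8.71%, 6.25% and 13.6% of all tested genes. The 2 higher in ESC + H/F-PRAMEL7WT were *Jup*, which encodes plakoglobin, a relative of β-catenin, with 333.0, 418.4 and 368.8 CPM (log2 fold change 0.33, adjusted p = 0.0221 from limma), and the co-repressor gene *Tle3*, named after its values were seen (log2 fold change 0.42, adjusted p = 0.0269). Both calls were lost without 1 library of that line. *Bcl9l*, a co-activator of β-catenin, had 9.68, 15.7 and 6.78 CPM and a log2 difference of 1.12 between the derived lines (adjusted p = 0.00768 from limma), which was lost without either library of ESC + H/F-PRAMEL7WT or replicate 2 of ESC + H/F-PRAMEL7ΔN. The co-repressor gene *Tle1* had 44.4, 35.5 and 30.2 CPM and fell in ESC + H/F-PRAMEL7ΔN by 0.54 on the log2 scale (adjusted p = 0.00767 from limma), though not without replicate 2 of that line. *Ctnnbip1*, which encodes an inhibitor of the contact between β-catenin and TCF factors, had 23.6, 24.5 and 16.8 CPM and fell there by 0.47 (adjusted p = 0.0233 from limma), a call lost without 1 library of that line.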
